A study of Mus musculus with 52 samples.

Results

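The genes described here are 10 neighbours of the microRNA gene Mir146 on mouse chromosome 11: Ccng1, Slu7, Clint1, Gm12568, Slc22a21, Gm12229, Hint1, Anxa6, Slc36a1 and Sparc. They were chosen from 48526 gene identifiers because they lie within 15 Mb of Mir146 and either differed between genotypes in these same libraries or sit next to genes that did. The difference between genotypes therefore chose the members, and their genotype values below are a description with no test. All 10 passed the filter on low reads in each of the 3 tables. Gm12568 at E14 and Gm12229 at P30 and P60 had no KO library at the level of that filter, 10 reads in a median library. They passed through WT libraries alone, the group in which they read higher.

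The libraries hold poly-A RNA of mouse brain. Each of the 52 libraries carries the label miR-146a KO (here KO) or WT, and age and region divide them into 14 groups. Cortex of embryonic day 14 (E14) gave 5 KO and 4 WT libraries. At postnatal day 30 (P30) there were 4 libraries per genotype from hippocampus, frontal cortex and amygdala alike. At postnatal day 60 (P60), amygdala had 4 KO and 3 WT libraries, as did frontal cortex, whereas hippocampus had only 2 KO libraries beside 3 WT. No group carries any other allele or agent by its labels, which give no strain, KO construct or breeding scheme. The series text says that animals of a genotype had different mothers. It also names a sensory cortex where the labels have frontal cortex, and P6 where they have P60, and the growth protocol on the mouse samples describes a human neural stem cell culture. The labels were followed for region and age, and this disagreement was not resolved. Values are the authors' normalised values, with library totals of 945861 to 1039135, and each age was normalised on its own, so levels at different ages are set side by side without a test.

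Recovered read totals ran from 2933026 to 9469214 per library. Mir146 itself had 1 read in 1 of the 52 libraries, so poly-A RNA did not check the genotype labels. Summed markers of the hippocampus ran from 2718 to 4652 in P30 hippocampus and from 430.3 to 794 in the other P30 regions, those of the frontal cortex ran from 546 to 744 there and from 133 to 319 elsewhere, and summed amygdala markers overlapped, at 143 to 226 in P30 amygdala against 96.6 to 242 elsewhere. Xist and Y-linked reads put 3 females among the 4 KO libraries of each P30 region and 1 female among the 4 WT libraries. In E14 cortex 2 of 5 KO and 3 of 4 WT libraries were female. In P60 amygdala and frontal cortex 2 of 4 KO and 1 of 3 WT were, and in P60 hippocampus 1 of 2 and 1 of 3. These are bulk samples, in which fewer cells of a type and less RNA per cell cannot be told apart.

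A microRNA represses mRNAs whose 3′ untranslated region pairs with its seed, bases 2 to 8 of the mature strand. The microRNA miR-146a is best known for restraining innate immune signalling downstream of Toll-like receptors. Genes close together on a chromosome tend to be inherited together, and no sequence variant was examined here.

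The mature strands of miR-146a from RefSeq (GRCm38.p6) show what a repressed mRNA would have to match, with the seed in capitals. They lie on the minus strand of chromosome 11, at 43374435 to 43374456 and 43374399 to 43374420.
mmu-miR-146a-5p: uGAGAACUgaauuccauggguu
mmu-miR-146a-3p: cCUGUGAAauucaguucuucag
The annotated 3′ untranslated regions were searched for AGTTCTC and GTTCTCA, the sites that pair with the 5p seed, on the transcribed strand. Of the 8 members with such a region 2 held a site (25.0%), against 4028 of 21027 genes (19.2%). The sites of Ccng1 (minus strand, 40749913 to 40749941) and of Slc36a1 (plus strand, 55233562 to 55233590) are shown with the match in capitals.
Ccng1 site: aagaactcccaAGTTCTCtcacatatgca
Slc36a1 site: gatgggctctcAGTTCTCctaccgttgcc
These 2 genes lay on opposite sides of 0 in the KO minus WT difference: Ccng1 was higher in KO in 7 of 7 comparisons and Slc36a1 lower in 7 of 7. A match of letters is a description and does not show binding. Hint1, Slu7, Clint1, Anxa6, Sparc and Slc22a21 held neither sequence, and the 2 processed pseudogenes have no annotated untranslated region.

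Along the chromosome (GENCODE M21, build GRCm38, where Mir146 occupies 43374397 to 43374461), only Ccng1 lies on the lower side of Mir146, at a gap of 2.62 Mb. Slu7 is the closest member, 0.059 Mb away. Clint1 and Gm12568 follow at 2.48 and 2.87 Mb. The other 6 lie between 10.6 Mb (Slc22a21) and 12.02 Mb (Sparc) away, with no member in between. None approaches the 15 Mb limit: the last tested gene inside it, Sh3bp5l at 14.96 Mb, ranged from -0.18 to 0.26 in the KO minus WT log2 difference, and the first outside, Gm12251, from -0.63 to 0.27.

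The window held 241 genes that were tested in at least 1 table, and 9 of them were called between genotypes in at least 1 setting (limma, adjusted p under 0.05), 1 of these a member. In the P60 frontal cortex all 6 genes called in the whole table lay in the window. So did all 5 in P30 amygdala, all 3 in P30 frontal cortex and all 4 in each of P60 amygdala and P60 hippocampus. In P30 hippocampus 5 of 6 did, and in E14 cortex 2 of 9. The window held 207 of the 18350 genes tested at E14, 224 of 18976 at P30 and 228 of 19239 at P60. The 10 members sit among a few strongly shifted neighbours that are not members. Pttg1, 7.5 kb before Slu7, was at 2.23 in E14 cortex and between -2.94 and -2.38 in the postnatal comparisons. Lyrm7, 5.5 kb before Hint1, ranged from 0.93 to 1.43 over the 7 comparisons.

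**Figure D1:**
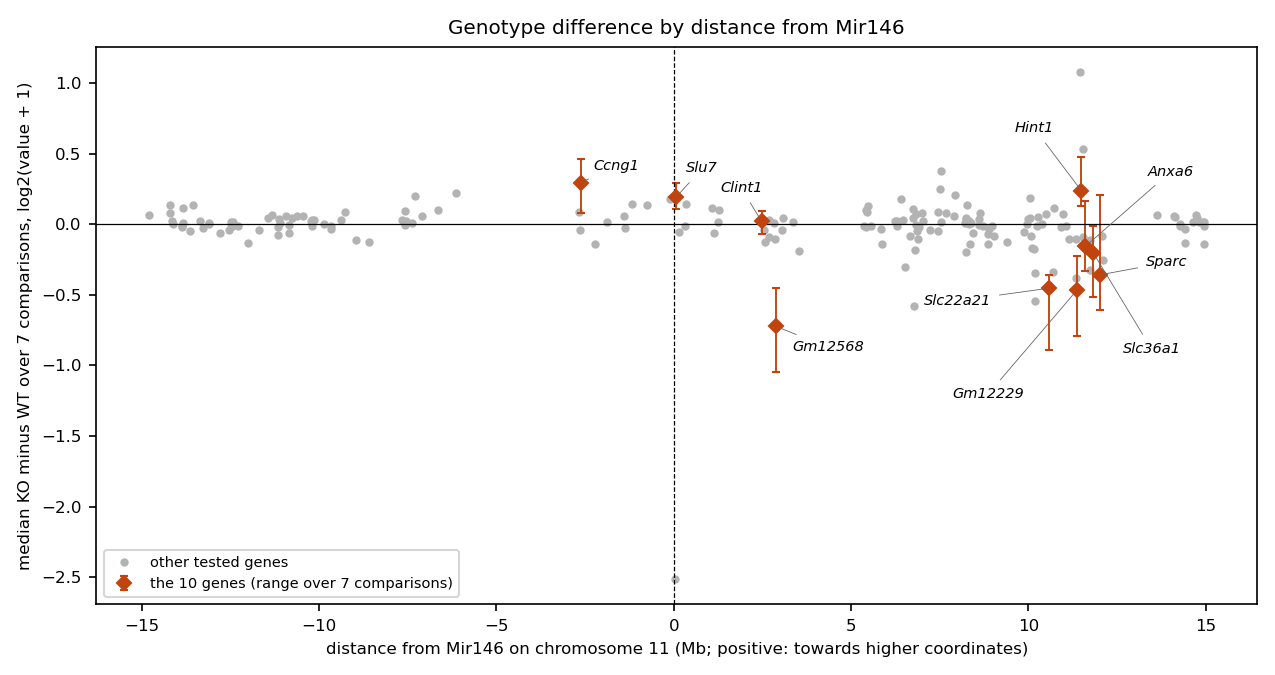
Median KO minus WT difference in log2(value + 1) over the 7 comparisons (vertical axis) against distance from Mir146 in Mb (horizontal axis). Diamonds are the 10 genes with their range over the comparisons, and grey points are the other genes tested in all 3 tables; Gm12568 is the lowest member, and Ccng1, Slu7 and Hint1 lie above 0.

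Between genotypes, Ccng1, Slu7 and Hint1 were higher in KO in all 7 comparisons, and Gm12568, Slc22a21, Gm12229 and Slc36a1 were lower in all 7. Anxa6 was lower in 5 and Sparc in 6, and Clint1 stayed near 0. These directions are what the members were chosen for. Regions of an age may share animals, so the 7 comparisons may not be independent. After adjustment over all genes, 1 member was called in P30 amygdala (Hint1), where 0.0263% of genes were, and none in the other comparisons, where 0.049% (E14 cortex), 0.0158% (P30 frontal cortex), 0.0316% (P30 hippocampus), 0.0208% (P60 amygdala), 0.0312% (P60 frontal cortex) and 0.0208% (P60 hippocampus) of genes were called. Counts of called members were equal with voom. Nothing is read from these counts.

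KO and WT libraries did not overlap in 27 of the 70 member comparisons, 9 with KO above WT and 18 below. By setting, the counts of members were 3 in E14 cortex (1.16% of all tested genes), 5 in P30 amygdala (6.65%), 2 in P30 frontal cortex (2.36%), 4 in P30 hippocampus (3.15%), 4 in P60 amygdala (5.04%), 5 in P60 frontal cortex (5.26%) and 4 in P60 hippocampus (11.7%). This too is the contrast the members were chosen on. The counts include Gm12568 at E14 and Gm12229 at P60, which passed the filter through WT libraries alone.

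**Figure D2:**
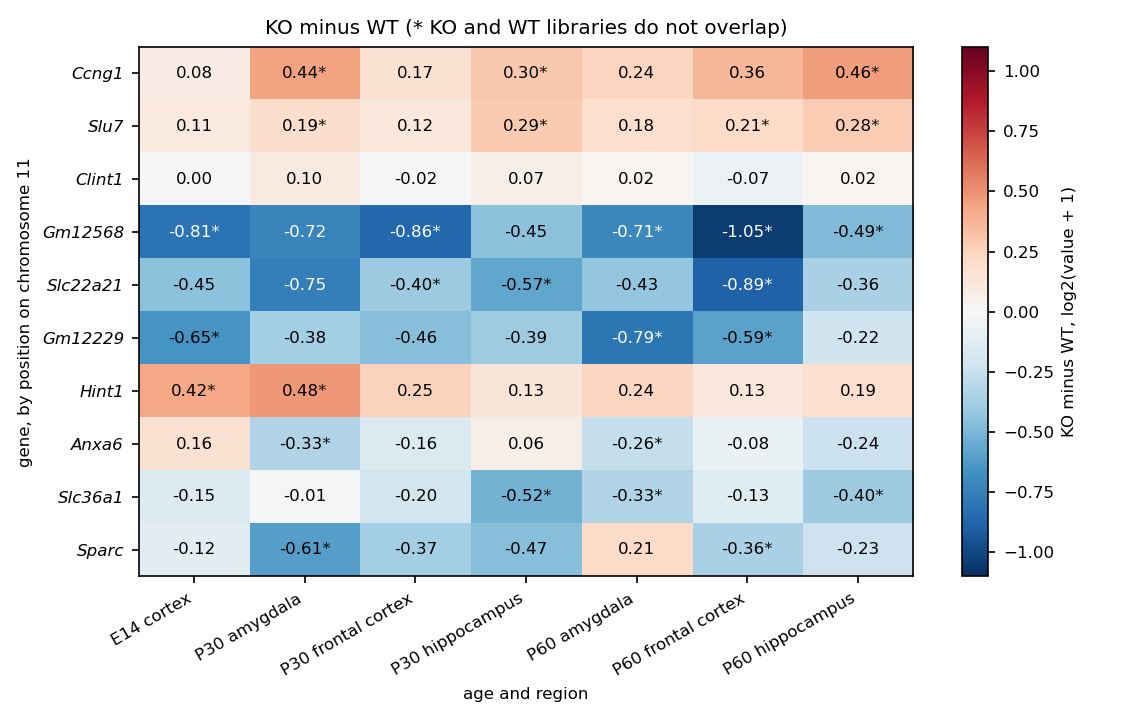
KO minus WT difference in log2(value + 1) for each gene (rows, in order of position) in each age and region (columns), with red for higher in KO and blue for lower. An asterisk marks comparisons in which the KO and WT libraries do not overlap; Gm12568 has the most, 5 of 7.

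Hint1 encodes a small enzyme of the histidine triad family that hydrolyses purine phosphoramidates, and it is abundant in the brain. It lies on the plus strand at 54866383 to 54870501. In P30 amygdala the KO libraries read 74.6, 75.5, 76.4 and 80.9 and the WT libraries 52.5, 55.3, 55.5 and 56.2. The groups do not overlap, with means of 76.9 ± 2.78 (SD, n = 4) and 54.9 ± 1.61 (SD, n = 4), a ratio of 1.40 and a log2 difference of 0.48 (SE 0.07). In E14 cortex KO read 120.1, 122, 128, 133 and 174 and WT 92.8, 94.6, 104 and 109. Every KO library again lay above every WT library, 1 of them far above, and the log2 difference was 0.42 (SE 0.11). The difference was smaller elsewhere, with overlapping groups: 0.25 (SE 0.07) in P30 frontal cortex, 0.13 (SE 0.07) in P30 hippocampus, 0.24 (SE 0.11) in P60 amygdala, 0.13 (SE 0.11) in P60 frontal cortex and 0.19 (SE 0.13) in P60 hippocampus.

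The order of Hint1 levels in WT began with E14 cortex at 100.1 ± 7.61 (SD, n = 4), which lay apart from the next group, P60 amygdala at 77.0 ± 10.3 (SD, n = 3). P60 hippocampus (66.0 ± 9.68), P30 amygdala (54.9 ± 1.61), P30 hippocampus (53.5 ± 3.88) and P60 frontal cortex (53.1 ± 3.76) followed with overlapping SDs. P30 frontal cortex was lowest, at 46.7 ± 1.88 (SD, n = 4). The embryonic cortex read higher than the young frontal cortex in both genotypes: the ratio of means, E14 to P30, was 2.14 in WT and 2.42 in KO.

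Slu7 encodes a splicing factor that helps select the 3′ splice site in the second catalytic step. It occupies 43433744 to 43447981 on the plus strand, and its WT level was nearly flat, with means from 53.4 ± 2.27 in P30 amygdala to 67.3 ± 6.03 in E14 cortex and overlapping SDs between neighbours in the order. In P30 hippocampus KO read 66.0, 67.4, 69.2 and 69.9 and WT 53.7, 54.1, 56.0 and 58.2. The 8 libraries separate without overlap at a log2 difference of 0.29 (SE 0.06). In P60 hippocampus KO read 69.5 and 70.4 and WT 56.4, 57.6 and 58.2, again without overlap, at 0.28 (SE 0.11). P30 amygdala and P60 frontal cortex also separated, at 0.19 (SE 0.06) and 0.21 (SE 0.09), while E14 cortex (0.11), P30 frontal cortex (0.12) and P60 amygdala (0.18) overlapped.

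Ccng1 encodes cyclin G1, a target of p53 that binds a phosphatase subunit and acts on Mdm2. It occupies 40748552 to 40755311 on the minus strand. In P30 amygdala KO read 82.4, 86.1, 93.0 and 104 and WT 60.7, 65.7, 66.6 and 74.7. All KO values lie above all WT values, with a ratio of means of 1.36 and a log2 difference of 0.44 (SE 0.09). P30 hippocampus also separated, at 0.30 (SE 0.09). In P60 hippocampus KO read 98.8 and 108 and WT 69.7, 76.0 and 78.6, without overlap and at 0.46 (SE 0.19). In P60 frontal cortex 3 KO libraries lay well above WT and the fourth below all of them: KO read 86.7, 130.4, 141 and 145 and WT 91.5, 92.1 and 104, at 0.36 (SE 0.16). E14 cortex showed the smallest difference, 0.08 (SE 0.08), from KO and WT means of 51.2 ± 4.37 and 48.3 ± 3.42. The WT level was lowest there and highest in P30 frontal cortex (102 ± 5.13 (SD, n = 4)), and only E14 cortex stood apart from its neighbour in the order.

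Clint1 encodes an epsin-related adaptor that links clathrin to the SNARE Vti1b on vesicles leaving the trans-Golgi network, and it occupies 45852051 to 45910625 on the plus strand. It had the smallest range of differences: KO minus WT ran from -0.07 in P60 frontal cortex to 0.10 in P30 amygdala, and KO and WT overlapped in every comparison. In P30 frontal cortex, for example, KO read 69.8, 72.9, 73.3 and 74.5 and WT 73.0, 73.6, 74.2 and 74.3. Its WT level was 108 ± 5.69 (SD, n = 4) in E14 cortex, apart from all later groups, which lay between 73.8 ± 0.628 and 79.8 ± 3.24.

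Anxa6 encodes annexin A6, a calcium-dependent membrane-binding protein with a doubled annexin core, and it occupies 54979108 to 55033445 on the minus strand. In P30 amygdala KO read 53.4, 54.2, 57.1 and 59.1 and WT 63.2, 69.8, 72.3 and 77.8. KO lies below WT without overlap, at -0.33 (SE 0.07). P60 amygdala gave the same order: KO read 49.6, 51.9, 52.5 and 56.3, WT 60.1, 63.4 and 65.7, and the difference was -0.26 (SE 0.10). Outside the amygdala the groups overlapped, from -0.24 in P60 hippocampus to 0.16 in E14 cortex. The P60 hippocampus value rests on 2 KO libraries at 66.5 and 85.2, and without either of them it was -0.06 or -0.42. Anxa6 had the largest ratio of P30 to E14 of the 10, as the WT cortex read 16.6 ± 4.38 at E14 and 69.4 ± 2.91 at P30, at a ratio of 4.19.

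Slc36a1 encodes a proton-coupled amino acid transporter of lysosomes and the cell surface, and it occupies 55204350 to 55236330 on the plus strand. In P30 hippocampus KO read 28.2, 32.2, 34.4 and 35.8 and WT 36.1, 46.8, 48.1 and 59.7. Each KO library lies below each WT library, by a narrow gap, and the log2 difference was -0.52 (SE 0.11). P60 amygdala (29.6, 30.6, 31.2 and 32.3 in KO, 34.1, 40.6 and 42.9 in WT) and P60 hippocampus (25.9 and 36.0 in KO, 36.1, 41.5 and 44.8 in WT) also separated, at -0.33 (SE 0.15) and -0.40 (SE 0.18). Leaving out KO replicate 1 brought the P60 hippocampus value to -0.63, and leaving out KO replicate 2 brought it to -0.17. In P30 amygdala the groups overlapped, with means of 36.0 ± 4.64 and 36.2 ± 3.21. The WT order ran from P30 frontal cortex (74.0 ± 6.52) down to E14 cortex (23.5 ± 1.97), and the ratio of P30 to E14 in WT cortex was 3.15.

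Sparc encodes a secreted collagen-binding glycoprotein made by vessels, meninges and glia. It occupies 55394500 to 55423183 on the minus strand. In P30 amygdala KO read 159.9, 212, 229 and 229.5 and WT 248, 293, 362 and 366. KO lies below WT without overlap, at a ratio of means of 0.654 and a log2 difference of -0.61 (SE 0.16). In the same comparison 5 of 5 endothelial, 6 of 6 astrocyte and 3 of 4 pericyte markers also lay below 0, with medians of -0.35, -0.21 and -0.14. All 6 microglial, all 6 oligodendrocyte and all 6 choroid plexus markers lay below 0 as well, with medians of -0.32, -0.58 and -0.90, and no marker of these lists was called. Of the neuron markers 4 of 6 lay above 0 (median 0.10). The summed endothelial markers ran from 181 to 223 in KO and 205 to 346 in WT, and no marker was at 0. Hint1, Slu7, Ccng1 and Anxa6 also separated in P30 amygdala. The part of these cell types in the P30 amygdala differences of Sparc, Hint1, Slu7, Ccng1 and Anxa6 was not tested. P60 amygdala went the other way with overlapping groups, at 0.21, where 4 of 5 endothelial markers lay above 0. There 6 of 6 meningeal markers lay above 0 as well (median 0.12), and 3 of 6 astrocyte markers did. P60 frontal cortex separated again, at 83.3, 84.7, 88.7 and 102 in KO and 108, 110.1 and 127 in WT, a difference of -0.36 (SE 0.24). There 4 of 5 endothelial markers lay above 0 with a median of 0.11, and 3 of 4 pericyte markers did (0.12). Of the meningeal markers 5 of 6 lay below 0 (-0.06), as did 4 of 6 astrocyte markers (-0.03). The part of these cell types at P60 was not tested. In P30 frontal cortex and P30 hippocampus the groups overlapped, at -0.37 and -0.47. Of the 6 meningeal markers, 5 lay above 0 in P30 frontal cortex (median 0.15) and 5 below 0 in P30 hippocampus (-0.24). In P30 amygdala 4 of 6 lay below 0 (-0.10). In P30 hippocampus, where Slc36a1, Slu7, Ccng1 and Slc22a21 separated, 6 of 6 oligodendrocyte markers lay below 0 (median -0.76). There 6 of 6 choroid plexus markers did as well (-0.72), and 4 of 4 hippocampus markers lay above 0 (0.47), with none called. The summed choroid plexus markers ran from 218 to 1688 in KO and from 242 to 8988 in WT, and the summed oligodendrocyte markers from 4645 to 7976 and from 5151 to 17586. Their part in the P30 hippocampus differences of Sparc, Slc36a1, Slu7, Ccng1 and Slc22a21 was not tested.

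Slc22a21 encodes a carnitine transporter closely related to Slc22a5, and it occupies 53949965 to 53980332 on the minus strand. Its transcript is 88.8% identical to that of Slc22a5 over 2113 bases, so reads may be split between the 2 genes in ways the authors' counting would set. Few reads support it: 525 over all libraries, against 3325 for Slc22a5. In P60 frontal cortex KO had 2, 5, 5 and 7 reads, which are normalised values of 0.320, 0.690, 0.740 and 0.970, and WT had 12, 15 and 17 reads, values of 1.71, 2.24 and 2.33. KO lies below WT without overlap, and the log2 difference was -0.89 (SE 0.24), while Slc22a5 read 0.20 (SE 0.16) in the same libraries. KO and WT also separated in 2 more comparisons, P30 frontal cortex (-0.40) and P30 hippocampus (-0.57). Over the 7 comparisons Slc22a5 ran from -0.19 to 0.38. Its highest value, in P60 hippocampus (SE 0.19), had the 2 KO libraries above the 3 WT libraries, where Slc22a21 read -0.36. Because 1 is added to values near 1, the Slc22a21 differences understate the ratio of means, which was 0.325 in P60 frontal cortex.

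Gm12568 is a processed pseudogene of 46243571 to 46244194, minus strand, inside Cyfip2 on the same strand, and its transcript is 95.2% identical over 621 bases to Hmgb1, which encodes a chromatin protein. It had 657 reads in all, against 33629 for Hmgb1 and 366911 for Cyfip2, so reads of either could contribute to its count. In E14 cortex KO had 5, 6, 6, 7 and 8 reads and WT 13, 17, 19 and 29. The normalised values were 0.560, 0.690, 0.740, 0.800 and 1.00 against 1.40, 1.87, 1.98 and 3.34, without overlap, at -0.81 (SE 0.18). In P60 frontal cortex they were 0.410, 0.890, 1.11 and 1.45 against 2.57, 2.74 and 3.73, at -1.05 (SE 0.22), the largest difference of any member. Hmgb1 ran only from -0.01 to 0.10 and Cyfip2 from -0.11 to 0.21 over the same 7 comparisons. P30 amygdala and P30 hippocampus were the 2 settings in which the Gm12568 groups overlapped.

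Gm12229 is a processed pseudogene of 54746357 to 54746824, minus strand, inside Cdc42se2 on the same strand, and its transcript is 97.0% identical over 433 bases to Hnrnpa3, which encodes an RNA-binding protein. It had 537 reads in all, against 41090 for Hnrnpa3 and 28784 for Cdc42se2. In P60 amygdala KO had 4, 4, 4 and 6 reads and WT 11, 13 and 15. The values were 0.640, 0.660, 0.740 and 0.890 against 1.77, 1.85 and 2.42, well apart, at -0.79 (SE 0.21). In E14 cortex they were 1.15, 1.38, 1.68, 1.95 and 2.34 against 2.42, 3.11, 3.23 and 4.19, also without overlap, at -0.65 (SE 0.17). Its host Cdc42se2, a small effector of the GTPase Cdc42, was lower in KO in 6 of 7 comparisons, with -0.76 (SE 0.10) in P60 hippocampus and -0.60 (SE 0.09) in P30 hippocampus, where Gm12229 read -0.22 and -0.39. Hnrnpa3 was higher in KO in 6 of 7, from -0.05 to 0.19.

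**Figure D3:**
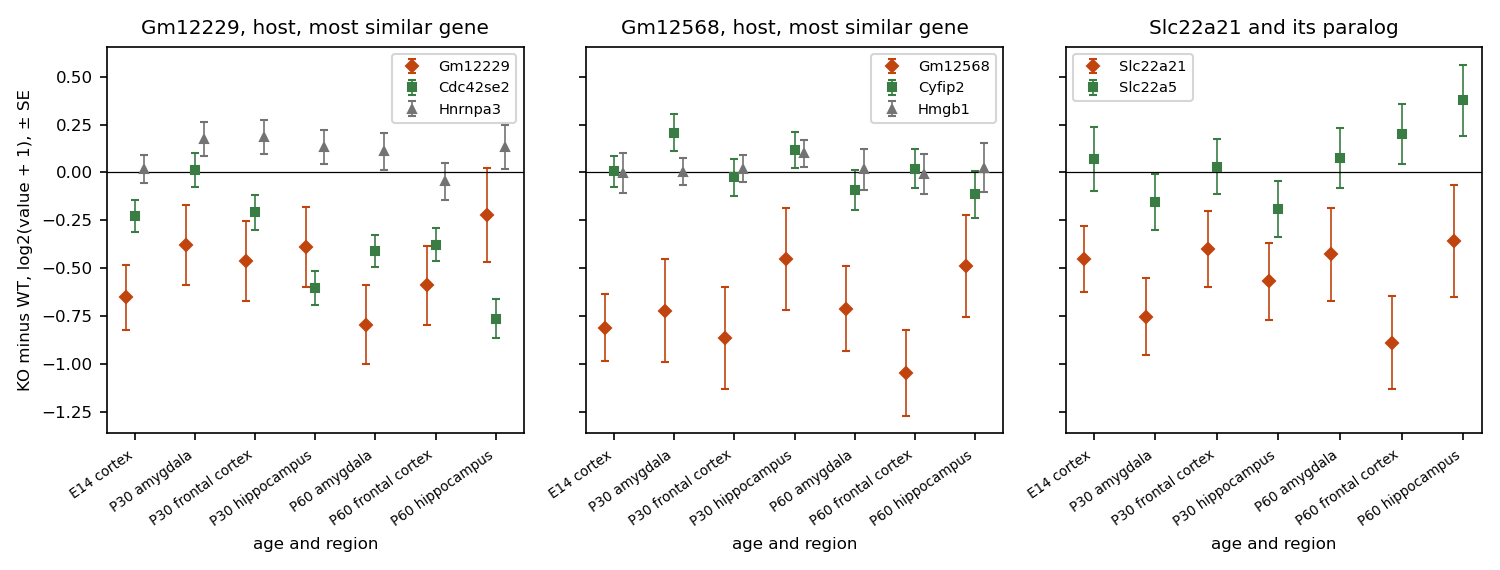
KO minus WT difference in log2(value + 1) with SE (vertical axis) in the 7 ages and regions (horizontal axis) for the 2 pseudogenes beside their host and most similar coding genes, and for Slc22a21 beside its paralog. The pseudogenes and Slc22a21 lie below 0 throughout, while Hmgb1 and Cyfip2 lie around 0 and Cdc42se2 lies below 0 in 6 of 7. Slc22a5 lies between -0.19 and 0.38.

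The plot of all libraries shows how far each gene's levels spread. The 7 coding genes other than Slc22a21 kept normalised values above 10 everywhere, while Slc22a21, Gm12568 and Gm12229 stayed below 5.

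**Figure D4:**
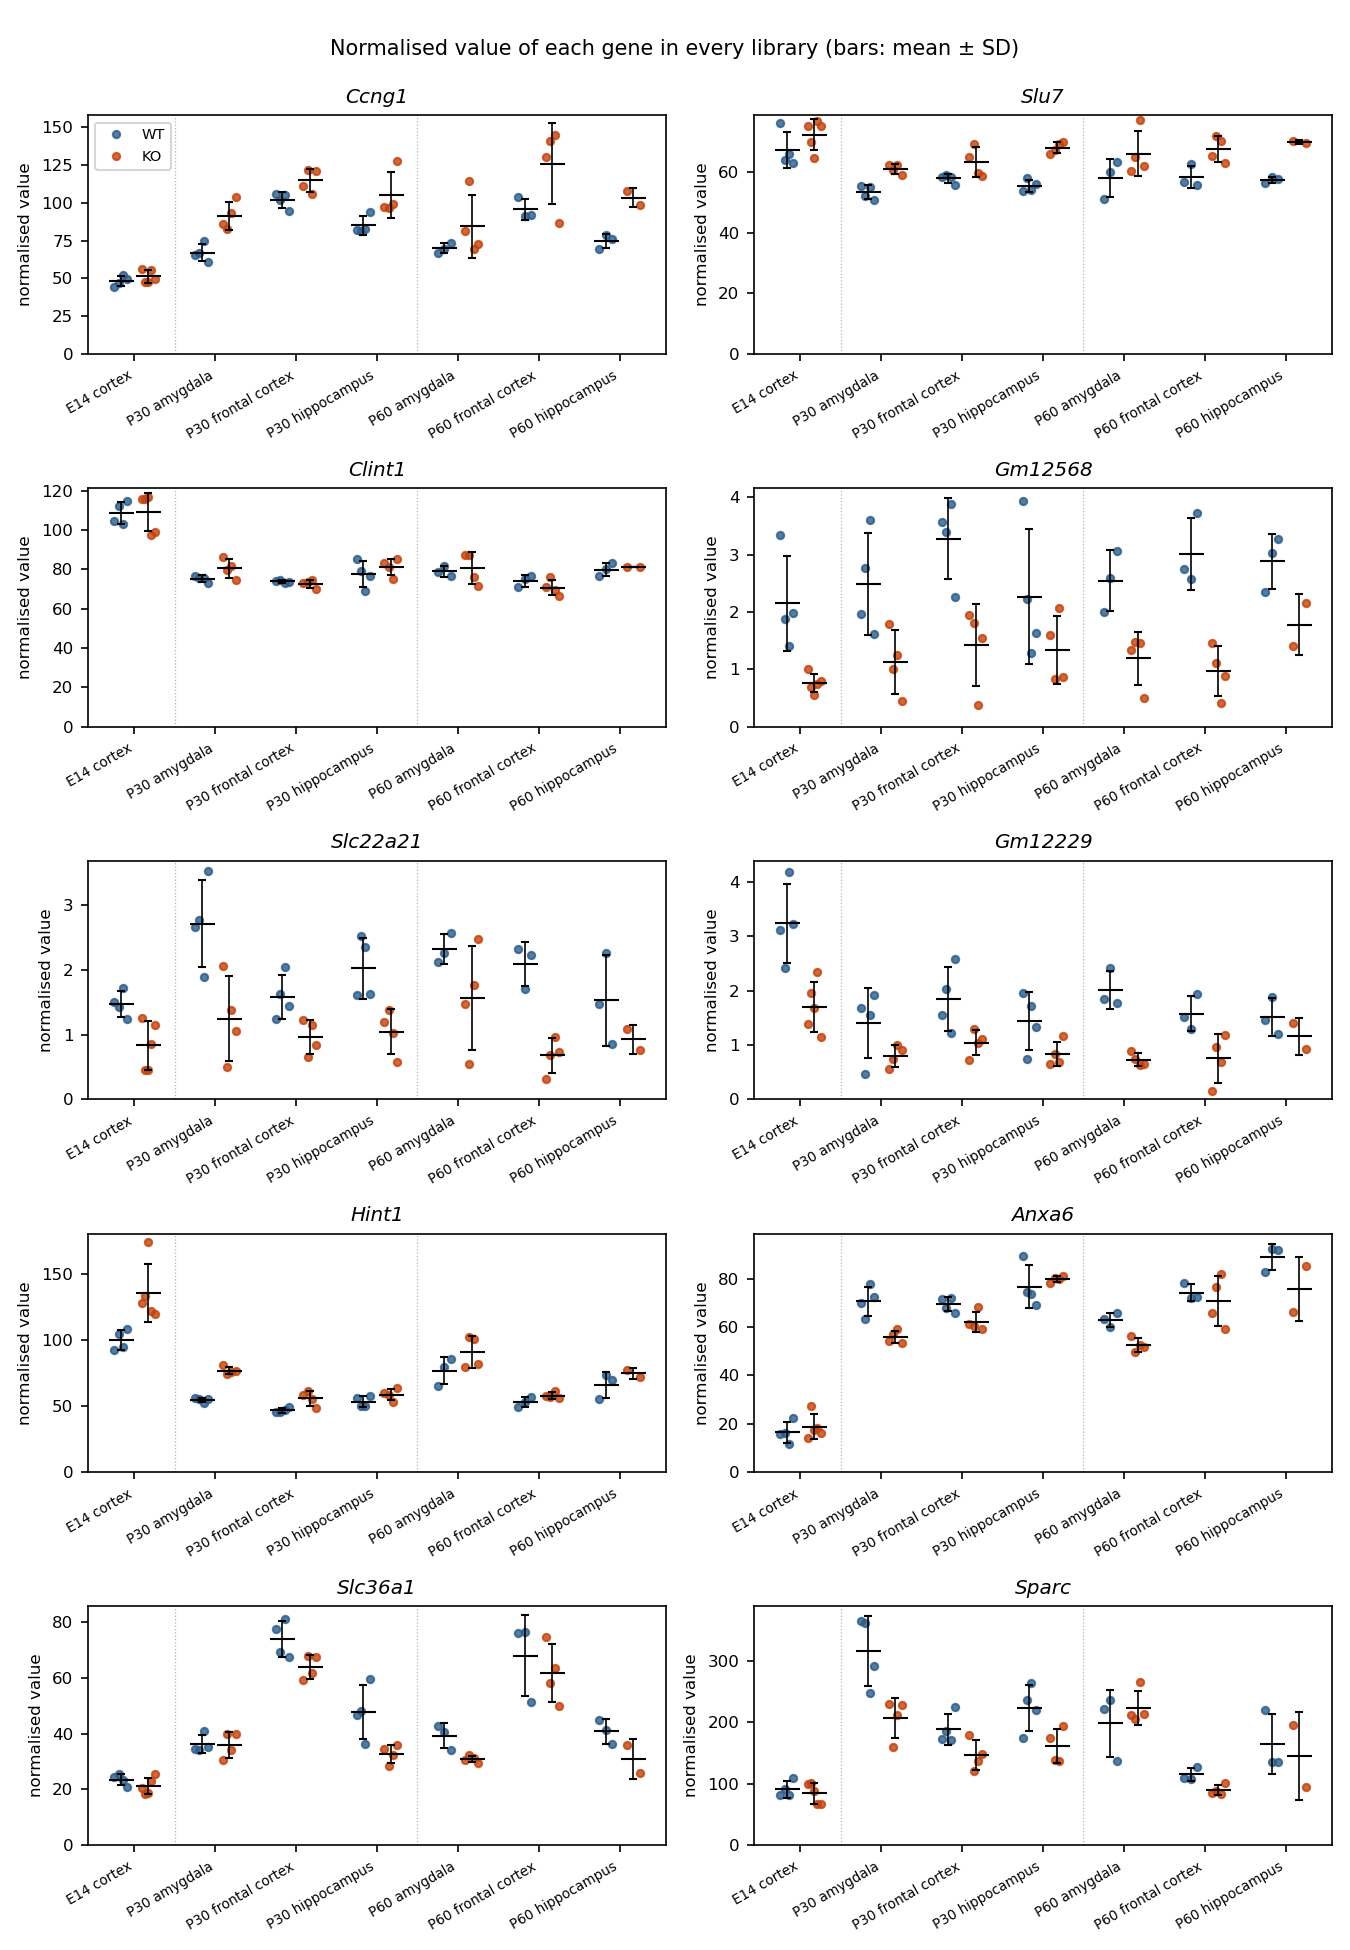
Normalised value (vertical axes, from 0) of each of the 10 genes in every library, by age and region, with WT in blue and KO in orange and bars for mean and SD. In P30 amygdala the 4 KO libraries of Hint1 sit between 74.6 and 80.9, all above the WT libraries at 52.5 to 56.2.

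Direct neighbours of the members did not all share their direction. Tnip1, an inhibitor of NF-kB signalling 16.2 kb before Anxa6, was higher in KO in 7 of 7 comparisons (0.33 to 0.76), while Gm2a, an activator of ganglioside breakdown 64.7 kb after it, was lower in 7 of 7 (-0.59 to -0.17). Pdlim4, after Slc22a21, was lower in 7 of 7 (-0.75 to -0.04), and Slc22a5, before it, was higher in 5. Nudcd2, 8.5 kb before Ccng1, ranged from -0.30 to 0.07. Fndc9 and Med7, on either side of Gm12568, had medians of -0.10 and -0.04. Atox1, after Sparc, ranged from -0.28 to 0.23, and Gpx3, after Hint1, from -0.53 to 0.74.

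Brain regions were compared and tested over both genotypes together (limma on log2(value + 1), adjusted over all genes). Region did not choose the members, but the KO libraries whose differences did carry equal weight in this contrast. A genotype difference in 1 region therefore enters it, and the p-values are not wholly free of that choice. The main fits did not pair the regions, though same-numbered libraries of a genotype had the same sex in every region and may share animals. Slc36a1 and Ccng1 were lower in the amygdala than in the frontal cortex, and Sparc and Hint1 were higher, at both ages. For amygdala against frontal cortex 4 of 10 members were called at P30 (37.3% of all genes were) and 5 at P60 (31.4%). For hippocampus against frontal cortex 5 were called at P30 (43.3%) and 3 at P60 (32.8%), and for amygdala against hippocampus 5 at P30 (44.1%) and 2 at P60 (29%). The scaling of the libraries weighs on the direction of these calls over all genes: in P30 amygdala against frontal cortex 4446 of 7075 called genes were higher with the deposited values and 3345 of 6606 with TMM scaling. The same split was 3910 of 6033 and 2724 of 5448 at P60, and for amygdala against hippocampus 5471 of 8367 and 4049 of 8172 at P30 and 3765 of 5572 and 2792 of 5387 at P60.

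Slc36a1 had the largest regional difference of the 10 at P30, and Sparc at P60. In WT at P30 the frontal cortex read 67.7, 69.4, 77.5 and 81.4 and the amygdala 34.1, 34.5, 35.3 and 41.0, with no overlap. The difference over both genotypes was -0.91 (SE 0.08, limma adjusted p = 3.29e-09) at P30 and -0.86 (SE 0.11, limma adjusted p = 5.52e-06) at P60, which is 1.89-fold and 1.82-fold lower in the amygdala on the log2(value + 1) scale. The hippocampus was also below the frontal cortex, at -0.80 (SE 0.08, limma adjusted p = 9.36e-09) and -0.84 (SE 0.12, limma adjusted p = 1.75e-05). Amygdala and hippocampus differed less, at -0.12 (SE 0.08, limma adjusted p = 0.253) and -0.02 (SE 0.12, limma adjusted p = 0.920). The P30 value passed with TMM scaling (-0.20, limma adjusted p = 0.0427), in WT alone (-0.37, limma adjusted p = 0.0157; KO alone gave 0.13) and without WT hippocampus replicate 3 (-0.18, limma adjusted p = 0.0433).

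Sparc was higher in the amygdala than in the frontal cortex, by 0.62 (SE 0.11, limma adjusted p = 1.60e-04) at P30 and 1.03 (SE 0.17, limma adjusted p = 2.74e-04) at P60. In KO at P60 the amygdala read 206, 212, 213 and 266 and the frontal cortex 83.3, 84.7, 88.7 and 102, far apart. In WT at P60 the amygdala read 136, 222 and 237 and the frontal cortex 108, 110.1 and 127, which do not overlap but lie closer. With WT libraries alone the P60 difference was 0.74 (limma adjusted p = 0.0804) and no longer passed. Summed meningeal markers ran from 145 to 472 in the P60 amygdala libraries and from 84.5 to 156 in the P60 frontal cortex libraries. At P30 the amygdala libraries ran from 213 to 507 and the frontal cortex libraries from 104 to 218. Vessel markers had the other order: the summed endothelial markers had medians of 206 (KO) and 229 (WT) in P30 amygdala and 247 and 262 in P30 frontal cortex, and the pericyte markers 199 and 204 against 232 and 238. Astrocyte markers were higher in the amygdala, at 1420 and 1625 against 1229 and 1296. At P60 they were 1362 and 1412 against 1128 and 1155. Oligodendrocyte precursor markers were also higher in P30 amygdala, at 124 and 153 against 89.8 and 94.7. Oligodendrocyte markers (1887 and 2135 against 5887 and 5955) and microglial markers (182 and 215 against 214 and 217) were lower there. The part of these cell types in the Sparc difference was not tested. Against the hippocampus Sparc was higher in the amygdala at P30, by 0.43 (SE 0.11, limma adjusted p = 0.00332). At P60 that contrast was 0.49 (SE 0.18, limma adjusted p = 0.0604), and it passed without WT amygdala replicate 3, KO hippocampus replicate 1 or WT hippocampus replicate 1 (limma adjusted p = 0.0037 to 0.0180). The hippocampus to frontal cortex difference at P60, 0.54 (SE 0.18, limma adjusted p = 0.0349), was lost without any 1 of 7 of its 12 libraries, and without KO hippocampus replicate 1 it fell to 0.28.

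Hint1 was higher in the amygdala than in the frontal cortex, by 0.34 (SE 0.05, limma adjusted p = 8.78e-06) at P30 and 0.58 (SE 0.08, limma adjusted p = 2.14e-05) at P60. In WT at P60 the amygdala read 65.5, 80.0 and 85.3 and the frontal cortex 49.4, 53.1 and 56.9, without overlap. The hippocampus lay above the frontal cortex by 0.33 (SE 0.09, limma adjusted p = 0.00676) at P60. The P30 value, 0.13 (SE 0.05, limma adjusted p = 0.0397), was lost without any 1 of 10 of its 16 libraries. Amygdala exceeded hippocampus by 0.21 (SE 0.05, limma adjusted p = 0.00141) at P30 and 0.25 (SE 0.09, limma adjusted p = 0.0420) at P60. Both were lost with TMM scaling, at 0.12 (limma adjusted p = 0.0607) and 0.17 (limma adjusted p = 0.165), the P30 value was 0.04 in WT alone, and the P60 value was lost without any 1 of 7 of its 12 libraries.

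Ccng1 was lower in the amygdala than in the frontal cortex, at -0.47 (SE 0.06, limma adjusted p = 2.07e-06) at P30 and -0.51 (SE 0.11, limma adjusted p = 0.00262) at P60. The WT values at P60 were 67.0, 69.7 and 73.4 in the amygdala and 91.5, 92.1 and 104 in the frontal cortex, again without overlap, though the P60 difference did not pass in WT alone (-0.44, limma adjusted p = 0.120). The hippocampus fell between the other regions: it was below the frontal cortex, at -0.20 (SE 0.06, limma adjusted p = 0.0127), at P30 and above the amygdala, where amygdala minus hippocampus was -0.27 (SE 0.06, limma adjusted p = 9.27e-04). At P60 the hippocampus to frontal cortex difference was -0.30 (SE 0.13, limma adjusted p = 0.0753), and without KO frontal cortex replicate 4, the low library named above, it passed at -0.39 (limma adjusted p = 0.00557).

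Anxa6 read highest in the hippocampus. It exceeded the amygdala there, with amygdala minus hippocampus at -0.31 (SE 0.05, limma adjusted p = 2.58e-05) at P30 and -0.50 (SE 0.08, limma adjusted p = 9.51e-05) at P60. At P30 it was -0.51 in KO alone (limma adjusted p = 7.17e-06) and -0.11 in WT alone (limma adjusted p = 0.269), and the difference between these 2 values was not tested. Against the frontal cortex the hippocampus was higher at P30 (0.25 (SE 0.05, limma adjusted p = 3.76e-04); 0.14 in WT alone, limma adjusted p = 0.172) and at P60 read 0.18 (SE 0.08, limma adjusted p = 0.0976), which passed without KO frontal cortex replicate 3 (0.21) or KO hippocampus replicate 1 (0.27). The amygdala lay below the frontal cortex at P60 (-0.32 (SE 0.07, limma adjusted p = 0.00193)), though not in WT alone (-0.23, limma adjusted p = 0.196), and did not pass at P30 (-0.06 (SE 0.05, limma adjusted p = 0.370)).

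Slu7 and Clint1 varied little by region. Slu7 was lower in P30 amygdala than hippocampus, at -0.10 (SE 0.04, limma adjusted p = 0.0454), a call lost without any 1 of 10 of 16 libraries. In WT alone the Slu7 difference was -0.05 (limma adjusted p = 0.534). Clint1 was higher in P30 hippocampus than in frontal cortex by 0.11 (SE 0.04, limma adjusted p = 0.0445), a call lost without any 1 of 14 of 16 libraries. The Clint1 difference was 0.07 in WT alone and 0.16 in KO alone, and neither passed. For Clint1 in P60 amygdala against frontal cortex, 0.14 (SE 0.05, limma adjusted p = 0.0669), pairing the libraries by replicate number brought the limma adjusted p to 0.0337. The 3 members with few reads were not called between any regions. Their SEs ran from 0.14 to 0.19 on the log2 scale, so differences well above the SE could be missed at this depth. Slc22a21 read 0.33 (SE 0.14, limma adjusted p = 0.0666) and 0.34 (SE 0.17, limma adjusted p = 0.148) against frontal cortex. It passed at P30 without KO amygdala replicate 2 (0.42) or WT amygdala replicate 3 (0.39) and at P60 without KO amygdala replicate 2 (0.45).

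**Figure D5:**
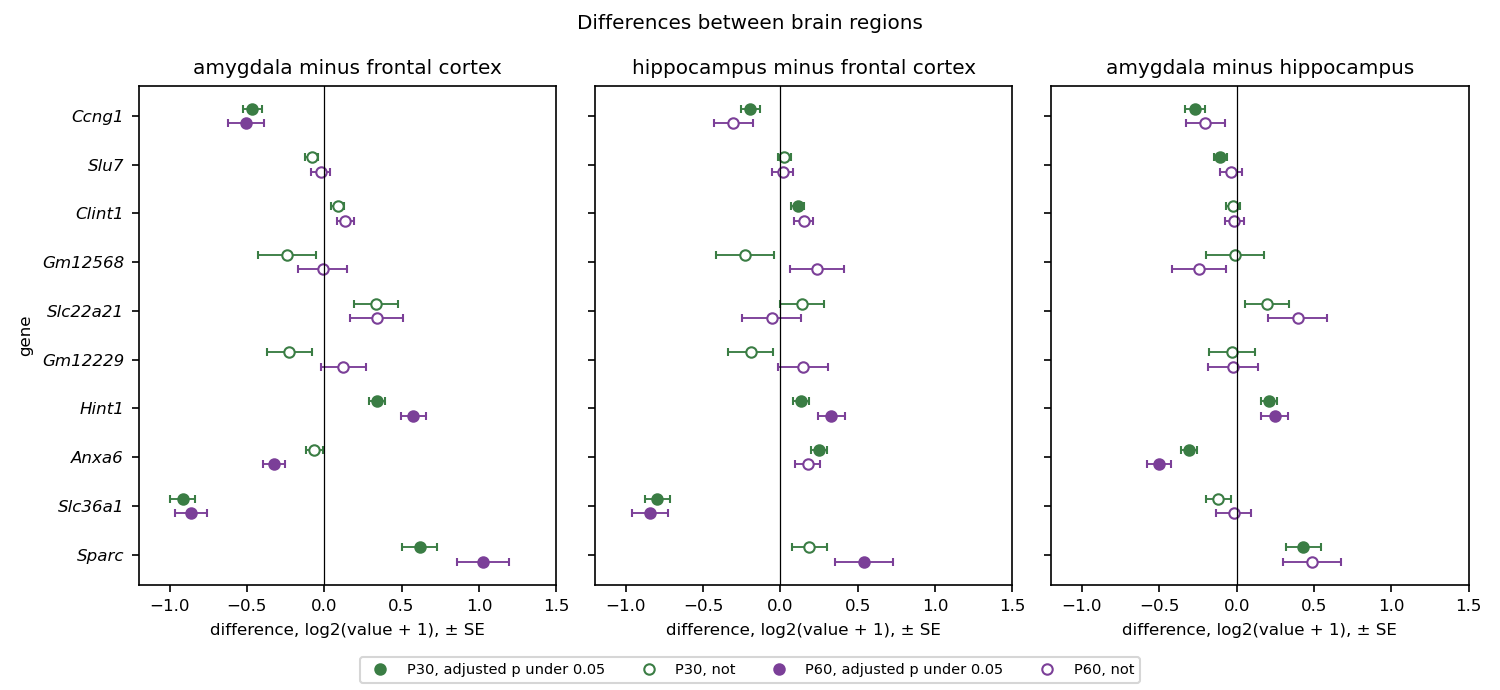
Difference between regions in log2(value + 1) with SE (horizontal axes) for each gene (vertical axis), at P30 in green and P60 in purple, filled where the limma adjusted p is under 0.05. Slc36a1 lies near -0.9 and Sparc and Hint1 to the right of 0 in the amygdala to frontal cortex panel.

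Relatives of the members were examined through lists of the same families and pathways. In the 7 genotype comparisons none of the listed genes was called (limma). Between P30 amygdala and frontal cortex, where 37.3% of genes were called, 6 of 12 tested members of the SPARC family and its collagen ligands were higher and 0 lower. Smoc1, a SPARC-related matrix protein, was higher by 2.27 and Fstl1, another, by 0.54. Among transporters of the SLC36 and SLC22 families 6 of 10 were higher and 1 lower, with the carnitine transporter Slc22a5 and its relative Slc22a4 at 0.41 and 0.44. Slc36a4, another amino acid transporter of the SLC36 family, was at 0.04, while Slc36a1 itself was at -0.91. Of the cyclin G and p53 target list 1 of 14 was higher and 5 lower, among the latter Ccng2, the paralog of Ccng1, at -0.35. At P60, where 31.4% of genes were called, the same comparison gave 4 of 12 higher and 1 lower for the SPARC list (Smoc1 at 2.06, Fstl1 at 0.56), 6 of 10 and 1 for the transporters (Slc22a5 at 0.41, Slc22a4 at 0.52), and 0 of 14 and 4 for the cyclin G list (Ccng2 at -0.34).

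For the rest, 5 of 15 clathrin adaptors and Clint1 partners were higher and 1 lower, 4 of 8 tested annexins were higher and 1 lower, 2 of 10 second-step splicing factors were higher and 1 lower, and 1 of 6 histidine triad enzymes was higher and 1 lower. Hint2, the mitochondrial relative of Hint1, was at 0.16 (limma adjusted p = 0.293), and Fhit was higher by 0.55. Over all tested genes the median difference in this comparison was 0.06.

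Within groups, the members did not move as a block. Deviations from the group mean in log2(value + 1) correlated across the 52 libraries at between -0.35 (Clint1 with Slc22a21) and 0.45 (Clint1 with Hint1) for the pairs of members. The genes closest to Hint1 by this measure were Atp5o (r = 0.87) and Atp5mpl (0.79), subunits of mitochondrial ATP synthase, and Rpl11 (0.84), a ribosomal protein. For Ccng1 they were Efr3a (0.71), Oxr1 (0.67) and Satb1 (0.65), for Slu7 Ddx25 (0.73), Pcdhb18 (0.69) and Kcna2 (0.67), and for Clint1 Fam107a (0.68), Chtf18 (0.67) and Dhx15 (0.64). For Anxa6 they were Bcan (0.68), Slc16a10 (0.66) and Htra1 (0.66), for Slc36a1 Nuak1 (0.77), Plcl2 (0.75) and Hivep3 (0.74), and for Sparc 2310022B05Rik (0.78), Plce1 (0.78) and Nr2f2 (0.78). For Slc22a21 they were Gm42942 (0.68), Gm43279 (0.61) and Trim45 (0.61), for Gm12568 Acot11 (0.59), Trim33 (0.58) and Csnk1g3 (0.55), and for Gm12229 Ano6 (0.56), Akt2-ps (0.54) and 4930523C07Rik (0.54). All points share a library's depth and composition, and of these genes Akt2-ps lies on chromosome 11 and the others do not.

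With age, the cortex gave descriptions only. The WT means of Anxa6, Slc36a1, Ccng1 and Sparc were 4.19, 3.15, 2.11 and 2.08 times as high at P30 as at E14. Those of Hint1, Clint1 and Slu7 were 2.14, 1.47 and 1.16 times as high at E14 as at P30. The ratio of P60 to P30 in WT frontal cortex ran from 0.92 for Slc36a1 to 1.14 for Hint1 among the genes with values above 10, except Sparc at 0.61. KO gave 0.61 for Sparc as well.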

How the data were processed

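RNA was measured in 52 libraries of 14 groups; the groups came from the sample labels. Libraries were made from poly-A RNA with a stranded kit and read in pairs, per the labels' protocols. The authors deposited 3 tables, 1 per age, of normalised values per gene, and the submitters' processing notes name limma, DESeq, edgeR and the build mm9 without a role; aligner and counting: not given in the sources used here. Column totals ran from 945861 to 1039135. All values were whole multiples of 1 read per library, within 0.1 read. The members and lists were chosen with earlier results of these data known.

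Genes entered the test when they had 15 reads in all and the value of 10 reads in a median library, in a number of libraries equal to that of the smallest group. They were tested on log2(value + 1) with limma 3.58.1 (R 4.3.3; trend, robust; Benjamini-Hochberg, 0.05), 1 fit per age. The fits were tested on simulated data. Replicates were separate samples by the labels. Within a genotype and age, same-numbered libraries had the same sex by Xist and Y-linked reads in every region. The regions of an age may therefore share animals, which was not tested. Such pairs at P30 correlated from -0.10 (WT amygdala and hippocampus) to 0.24 (KO amygdala and frontal cortex). The main fits took all libraries as independent. For comparisons of regions, the replicate block paired libraries of a genotype by number. For comparisons of genotypes it paired KO and WT libraries of a region by number. Those are different animals, so there the block does not address shared animals. Same-numbered libraries deviated together in P60 amygdala across genotypes (r = 0.21 to 0.32) between P60 amygdala and frontal cortex of a genotype (0.11 to 0.21) and between P60 amygdala and hippocampus in WT (0.10 to 0.16), taken from the correlations and not the labels. The 2 such pairs across genotypes in P60 hippocampus (0.50 and 0.62) were too few to decide. Named genes were the members, their tested neighbours, their 3 closest genes by r, and relatives from the lists. Names and positions came from GENCODE M21 (48058 of 48526 identifiers matched), similarity from blastn over at least 100 bases. No column was left without a sample.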

Additional observations from a re-analysis of the deposited data

Results flagged for a closer look

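In groups of 4 or 5 libraries, 5 of 100 gene and group combinations held a library far from the others, and chance gives about 1 in 20. Ccng1 read 128 in KO P30 hippocampus replicate 4, where the others lay between 96.6 and 99.1, and 94.1 in WT P30 hippocampus replicate 4, where they lay between 81.3 and 82.7. Hint1 read 174 in KO E14 cortex replicate 3, against 120 to 133 in the others. Sparc read 266 in KO P60 amygdala replicate 3, against 206 to 213. Gm12568 read 0.50 in KO P60 amygdala replicate 4, against 1.34 to 1.48. No library was left out of any value above for this reason.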

How the results depend on the processing

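The planned edgeR and DESeq2 fits were not run, since the deposited values are not counts; limma voom on the reads recovered from them, an alternative chosen after seeing the data, stood in for both. The number of members called in P30 amygdala between genotypes was 2 with sex as a covariate, where Ccng1 joined Hint1 and 5 of 18976 genes were called. The genotype contrast chose the members, so nothing is read from that count. In hippocampus against frontal cortex at P30 the number of members called was 3 with no filter, 3 in WT alone and 2 in KO alone. In amygdala against hippocampus at P30 it was 3 in WT alone and 3 in KO alone. At P60 it was 2 in WT alone for amygdala against frontal cortex, and 1 in WT alone and 1 in KO alone for hippocampus against frontal cortex. For amygdala against hippocampus at P60 it was 1 with no filter, with TMM scaling, with voom, in WT alone and in KO alone. Fits on 1 genotype use fewer libraries. With TMM scaling Slu7 passed in P30 amygdala against frontal cortex (-0.14, limma adjusted p = 0.0136) and Clint1 in P30 amygdala against hippocampus (-0.11, limma adjusted p = 0.0433). In 1 genotype alone Ccng1 (P30 amygdala and frontal cortex against hippocampus, KO), Sparc (P30 amygdala against hippocampus, KO; P60 hippocampus against frontal cortex, both) and Hint1 (hippocampus against frontal cortex, KO at P30 and both at P60) did not pass.

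Leaving out each library in turn gave 0 to 0 members called between genotypes in E14 cortex, P30 frontal cortex and each P60 region, 1 to 2 in P30 amygdala (Ccng1 was added without WT replicate 3, where 7 genes were called in all) and 0 to 2 in P30 hippocampus (Slc36a1 and Slu7 without WT replicate 1, where the genes called in all went from 6 to 266, and Slc36a1 without WT replicate 3, where they were 12). Nothing is read from these genotype counts either, since that contrast chose the members. For amygdala against frontal cortex the range of members called was 4 to 5 at P30 and 5 to 6 at P60, for amygdala against hippocampus 4 to 6 and 1 to 2, and for hippocampus against frontal cortex 3 to 5 and 2 to 4. With the replicate block the count between genotypes was 1 in P30 amygdala and 0 elsewhere, and no count of members called between regions moved by over 1.5 times; single calls that changed were Clint1 (P30 hippocampus against frontal cortex, limma adjusted p = 0.0528), Slu7 (P30 amygdala against hippocampus, 0.0658) and Sparc (P60 hippocampus against frontal cortex, 0.0532), lost, and Ccng1 (the same P60 contrast, 0.0121) and Clint1 (P60 amygdala against frontal cortex, 0.0337), gained. No called region difference changed direction under any setting run. A pseudocount of 0.1 widened the differences of the 3 low genes, for example Gm12568 in P60 frontal cortex to -1.64, and voom gave -1.69 there. Reads limit those 3 genes most.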
